A study of Homo sapiens with 4 samples.

Results

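The kinesins are a family of motor proteins that walk along microtubules, and their mRNA was compared here between 786-O renal carcinoma cells lacking VHL and the same line given VHL back. Members were taken by symbol alone, as every gene named KIF or KIFC followed by a digit, which gave 31 of the 12912 genes in the count table. The kinesin partners KIFAP3 and KIFBP (listed in the table under its older name KIF1BP) were left out of the family. All 31 members had enough counts to be tested. By their textbook roles 9 were placed in a mitotic class, 12 in a transport class, 5 in a class of cilium kinesins and 5 in a class of other kinesins.

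The line comes from a clear cell renal tumor and lacks functional VHL, the substrate-recognition subunit of an E3 ubiquitin ligase. The 786-O-Ctrl libraries, labelled 786-OTR with the genotype wild type (VHL-null), were compared with 786-O-VHL libraries of the same line after VHL restoration through a retroviral vector for HA-tagged VHL, with 2 libraries per group. TR stands for a triple reporter (GFP, luciferase, thymidine kinase) that cells of both groups carry, and all cells were grown in RPMI1640 with 10% serum. Each group is a single subline, so that differences between these sublines other than VHL cannot be told apart from VHL itself, and no source used here says whether the libraries of a group came from separate cultures. The p-values therefore measure only the spread between these libraries.

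The libraries held 2807779 to 22141263 counts, and 786-O-VHL replicate 1 was the shallowest by far. Both 786-O-Ctrl columns carry the same replicate number, so these libraries are told apart below by depth, as deeper and shallower. VHL mRNA was at 42.9 and 43.9 CPM in 786-O-Ctrl, and restoration brought it to 178 and 163 CPM (log2 fold change 1.96, standard error 0.0706, edgeR FDR = 2.86e-19). CPM are counts brought to a common library total with TMM scaling. Log2 fold changes, positive where 786-O-VHL was higher, come from edgeR's quasi-likelihood test, with Benjamini-Hochberg adjustment (FDR) over 12335 genes. Of 7 renal line markers 3 were lower and 1 was higher in 786-O-VHL, where 31.9% of all genes were lower and 32.6% higher. The marker that was higher was EPAS1, at 324 and 835 CPM (log2 fold change 1.37, edgeR FDR = 3.22e-17). This is an mRNA level. For HIF2α, the protein that EPAS1 encodes, the paper reports a fall after VHL restoration. PAX8 was at 274 and 152 CPM and VIM at 1680 and 730 CPM in the means without and with VHL, while CUBN, a proximal tubule receptor, was near its detection limit at 1.25 and 1.41 CPM. PECAM1, an endothelial gene, had between 1 and 9 counts per library, and PDGFRB, a mesenchymal gene, was at 3.77 and 5.94 CPM (log2 fold change 0.70, edgeR FDR = 0.0147). PTPRC, CD68 and ALB were not analysed here, and the part of such markers in the results was not tested.

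Kinesins couple ATP hydrolysis in a conserved motor domain to movement along microtubules or to their shortening. Mitotic kinesins build the spindle, align and move chromosomes and drive cytokinesis, and most of them are made mainly in G2 and M phase through promoter elements known as CHR and CCAAT boxes. Transport kinesins carry vesicles, endosomes, mitochondria and mRNA through interphase cells and are made throughout the cell cycle. In clear cell renal carcinoma, VHL loss stabilizes HIF, and VHL has also been linked to microtubules and to the primary cilium.

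Mitotic kinesins were lower in 786-O-VHL and transport kinesins were mixed. With edgeR's FDR under 0.05, 8 of 9 mitotic kinesins were lower after VHL restoration and 0 were higher, with a median log2 fold change of -0.93. Of all genes tested, 31.9% were lower and 32.6% higher at that FDR, and the median was 0.02. Among the transport kinesins, 3 of 12 were lower and 2 were higher, with a median of -0.06 that became 0.08 when libraries were scaled by their totals alone. Over the whole family 13 were lower, 7 were higher and 11 did not pass, and 64.5% of all genes passed in either direction. The classes were written by hand with earlier results of these data known, and the counts depend on where the classes are cut. With KIF2A, which also works at spindle poles, counted as mitotic, 8 of 10 were lower and the median was -0.90. With KIF3A, KIF3B and KIF17 counted as cilium kinesins, 2 of 9 transport kinesins were lower and 2 were higher. No test of the difference between classes was made, since the members are not replicates. At an unadjusted p under 0.05 the mitotic class also had 0 members higher, and DESeq2 and limma-voom gave 0 as well.

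The share of the mitotic class within the family showed the same without any scaling. Mitotic kinesins made up 40.6% of all kinesin counts in the deeper 786-O-Ctrl library (Wilson 95% interval 40.2% to 41.1%) and 41.0% (40.5% to 41.5%) in the shallower library. In 786-O-VHL they made up 24.7% (23.6% to 25.9%) in replicate 1 and 25.9% (25.4% to 26.4%) in replicate 2. These shares use only kinesin counts and do not depend on how libraries are scaled, and their intervals cover counting error only. The mean share was 40.8% ± 0.266 (SD, n = 2) in 786-O-Ctrl and 25.3% ± 0.848 (SD, n = 2) in 786-O-VHL, while that of transport kinesins was 53.2% ± 0.454 and 64.3% ± 0.146 (SD, n = 2 each). The difference between groups was larger than the spread within them, and with 2 libraries per group the smallest two-sided p of an exact permutation test is 0.333. A smaller mitotic share by itself raises the shares of the other classes. With TMM scaling the summed level of the transport kinesins did not rise. It was 1330 and 1300 CPM in 786-O-Ctrl and 1240 and 1260 CPM in 786-O-VHL.

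**Figure D1:**
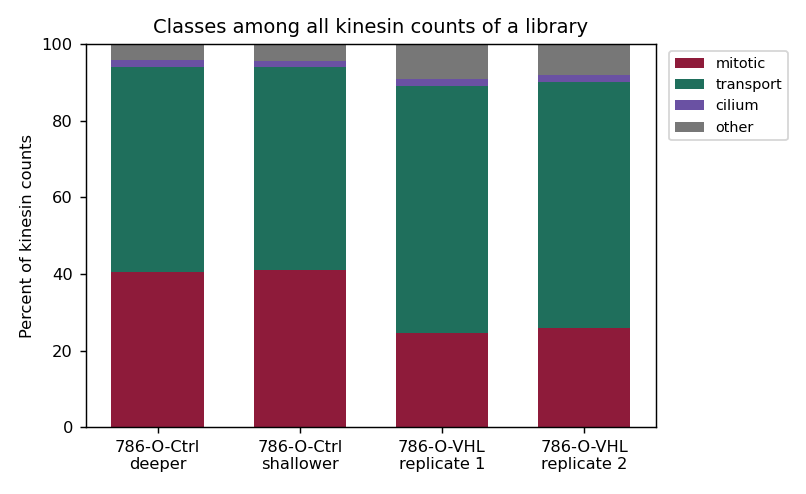
Percent of all kinesin counts (vertical axis) taken by each class in each of the 4 libraries (horizontal axis). The mitotic part was 40.6% and 41.0% in the libraries without VHL and 24.7% and 25.9% in those with VHL restored.

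KIF11 (Eg5), the kinesin-5 that slides spindle microtubules apart, fell in 786-O-VHL. Its gene spans 94333862 to 94415152 of chromosome 10 (GRCh37, as are all gene positions here), and its level was 136 CPM in each 786-O-Ctrl library and 50.2 and 49.9 CPM in 786-O-VHL replicates 1 and 2. The groups did not overlap, and the replicates were nearly equal (log2 fold change -1.45, standard error 0.0726, edgeR FDR = 4.01e-16). What share of all genes had groups without overlap was not determined, here or for the members below. KIF15 and KIFC1, which act beside KIF11 on the spindle, were not analysed here.

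Motors of cytokinesis also fell, and the order of KIF11, KIF20A and KIF20B was not resolved, since their 95% intervals overlapped. KIF20A (MKLP2), which brings the chromosomal passenger complex to the central spindle, lies on chromosome 5 from 137514408 to 137523412. It was at 142 CPM in each 786-O-Ctrl library and at 43.1 and 58.3 CPM in 786-O-VHL, where the replicates differed but both stayed far under the control level (log2 fold change -1.38, standard error 0.0821, edgeR FDR = 1.81e-14). Exons of the opposite-strand genes BRD8 and CDC23 share 5.35% of its exon bases. KIF20B (MPHOSPH1), which acts in abscission and lies on chromosome 10 from 91461347 to 91534696, was at 85.4 and 85.3 CPM in 786-O-Ctrl and at 32.6 and 35.5 CPM in 786-O-VHL (log2 fold change -1.29, standard error 0.08, edgeR FDR = 4.28e-14). KIF14, a kinesin-3 motor of the midbody on chromosome 1 from 200520625 to 200589879, was at 61.0 and 61.2 CPM and at 34.3 and 33.1 CPM (log2 fold change -0.87, standard error 0.0856, edgeR FDR = 6.76e-10). All libraries of 786-O-VHL were below those of 786-O-Ctrl for these motors. KIF23, the third kinesin-6, was not analysed here.

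The motors that act on chromosome arms and centromeres fell too, with log2 fold changes between -0.93 and -0.72. KIF4A, a chromokinesin of chromosome arms and the central spindle (chromosome X, 69509954 to 69640736), was at 178 and 184 CPM in 786-O-Ctrl and at 99.1 and 93.3 CPM in 786-O-VHL (log2 fold change -0.93, standard error 0.0678, edgeR FDR = 1.45e-12). KIF4B, an intron-less near copy of KIF4A, was not analysed here, and reads that fit both could have been dropped or counted on either. KIF22 (Kid), the other chromokinesin (chromosome 16, 29802048 to 29816706), was at 102 and 105 CPM and at 58.0 and 60 CPM (log2 fold change -0.80, standard error 0.0719, edgeR FDR = 1.26e-10). KIF2C (MCAK), which shortens microtubules at centromeres (chromosome 1, 45205490 to 45233439), was at 142 and 147 CPM and at 81.8 and 89.5 CPM (log2 fold change -0.72, standard error 0.0688, edgeR FDR = 3.65e-10). In each of these, the higher 786-O-VHL library stayed well under the lower 786-O-Ctrl library.

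The pair of kinesin-8 motors parted. KIF18B, which limits astral microtubule length (chromosome 17, 43002077 to 43025141), was at 121 and 106 CPM in 786-O-Ctrl and at 47.2 and 48.3 CPM in 786-O-VHL (log2 fold change -1.24, standard error 0.0803, edgeR FDR = 1.09e-13). KIF18A, which aligns chromosomes at the spindle equator (chromosome 11, 28042166 to 28129703), was at 41.5 and 39.3 CPM in 786-O-Ctrl and at 28.8 and 41.0 CPM in 786-O-VHL. Its groups overlapped, since replicate 2 reached the control level and replicate 1 did not (log2 fold change -0.09, 95% interval -0.30 to 0.12, edgeR FDR = 0.475). The KIF18A call depended on single libraries: without 786-O-VHL replicate 2 its log2 fold change was -0.50 (edgeR FDR = 0.0123), without replicate 1 it was 0.02, and over all alternatives the FDR ran from 0.0123 to 0.87. KIF18A counts were 0.344 and 0.371 times those of KIF18B in the 786-O-Ctrl libraries and 0.612 and 0.849 times in the 786-O-VHL libraries. That ratio was higher in each 786-O-VHL library than in each 786-O-Ctrl library.

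**Figure D2:**
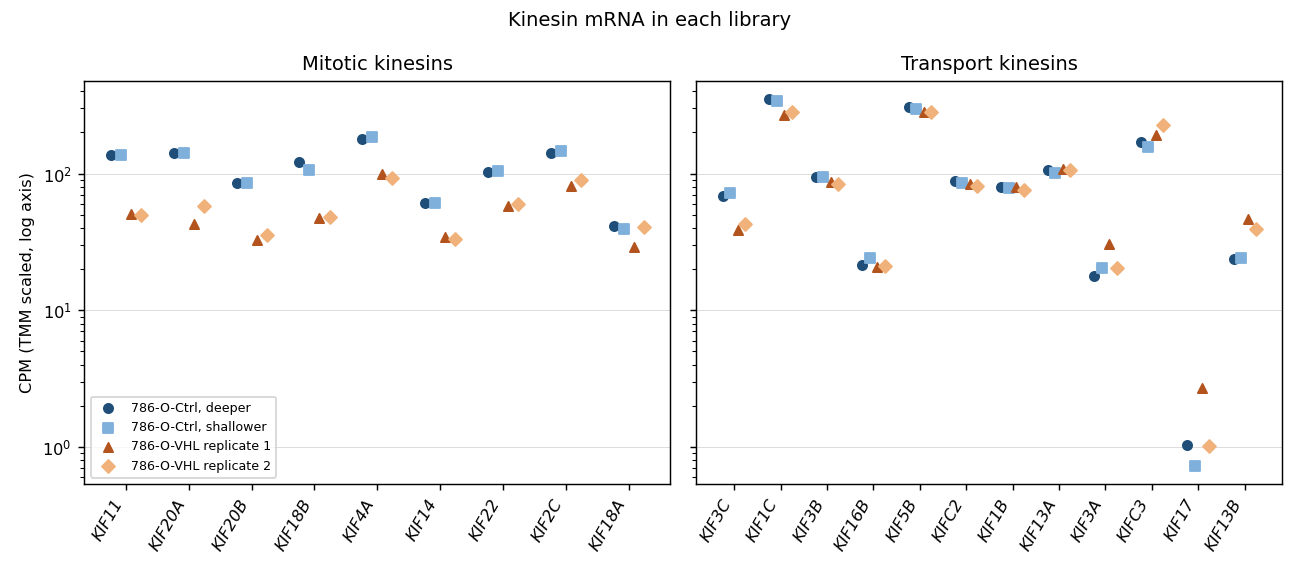
CPM on a log axis for each mitotic (left) and transport (right) kinesin, with 1 point per library. For 8 of the 9 mitotic kinesins the 786-O-VHL points lie below those of 786-O-Ctrl, with KIF18A as the exception, while transport kinesins lie on either side or with the points of both groups close together. Among transport kinesins that did not pass the test, the 786-O-VHL points also lie below for KIF5B, KIFC2 and KIF16B, and above for KIF13A and KIF3A. What share of all genes has points apart in this way was not determined.

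The changes of the family ran from -1.45 to 1.85 on the log2 scale, so that no member reached 4-fold, a change that 1.54% of all genes passed as lower and 2.92% as higher with an FDR under 0.01. Past 2-fold, 4 mitotic kinesins (KIF11, KIF20A, KIF20B and KIF18B) were lower at an edgeR FDR under 0.05, against 7.52% of all genes tested. On the higher side, KIF6 (1.85), KIF26B (1.75) and KIF12 (1.13) passed 2-fold at that FDR, against 10% of all genes tested. When each library was left out in turn, 8 to 9 mitotic kinesins were called lower each time, and with every library thinned to 2807779 counts there were also 8.

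Genes that mark cycling cells moved with the mitotic kinesins. All 10 G2/M markers were lower in 786-O-VHL, with a median log2 fold change of -0.90, among them MKI67 (-1.26, edgeR FDR = 1.62e-15) and CCNB1 (-1.22, edgeR FDR = 1.71e-14). Their summed level was 2360 and 2330 CPM without VHL and 1290 and 1410 CPM with VHL restored, or 57.6% of the control mean, against 48.9% for the summed mitotic kinesins. All 10 S phase markers were also lower, with a median of -2.10 and summed levels of 1860 and 1770 CPM against 416 and 415 CPM. GINS2, MCM4 and RRM2 were among them, with log2 fold changes of -3.28, -2.93 and -2.64. Each G2/M and S phase marker had an edgeR FDR below 0.05. By that measure 31.9% of all genes tested were lower, and the all-gene median was 0.02. Both marker lists were put together by hand after earlier results of these data had been seen. In bulk RNA, fewer cells in G2 and M phase and less mitotic kinesin mRNA per cell cannot be told apart, and the part of cell cycle stage in these changes was not tested.

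The mRNAs of proteins that work with mitotic kinesins were lower as well, on a list written by hand with earlier results of these data known. Of 15 such partners 14 could be tested by edgeR, and all 14 were lower at an FDR under 0.05 (median log2 fold change -0.93). Among all genes tested 31.9% were lower, and the median was 0.02. By edgeR 0 of the partners were higher, also at an unadjusted p under 0.05. DESeq2 tested 15 and gave 13 lower and 0 higher, and limma-voom gave 14 lower and 0 higher. The log2 fold change was -1.52 for ANLN, a scaffold of the contractile ring (edgeR FDR = 4.21e-17), -1.33 for GTSE1, which restrains KIF2C (edgeR FDR = 1.78e-14), and -1.19 for PRC1, the midzone bundler that recruits KIF4A (edgeR FDR = 0.00954). PRC1 had only 70 and 51 counts without VHL, 0 counts in 786-O-VHL replicate 1 and 30 in replicate 2. NUSAP1, the partner that edgeR left untested, had 11 counts or fewer per library. CENPE, the kinesin-7 of kinetochores, is counted among these partners, since its symbol keeps it out of the family. It was picked for mention after its values were seen (log2 fold change -0.60, edgeR FDR = 1.88e-07).

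The DNA before the start sites is shown for 6 mitotic kinesins with different changes and motif content and for a transport kinesin. Whether these letters bear on the changes was not tested. In the set of RefSeq promoters used here, 26 of the 31 members were matched by symbol, all 9 mitotic ones among them. None was matched for KIF27, KIF26B, KIFC2, KIFC3 and KIF13B. The transport promoters therefore leave out KIF13B and KIFC3, the transport kinesins called higher in 786-O-VHL. Each line gives the 150 bases before the RefSeq start, 5′ to 3′ on the gene's strand in GRCh38.p14, which is another build than that of the gene positions above. Capitals mark CCAAT or its reverse ATTGG, the CHR letters TTTGAA or their reverse TTCAAA, and the E2F letters TTCCCGC and TTGGCGC on either strand.
KIF11 (chr10:92592980-92593129, + strand): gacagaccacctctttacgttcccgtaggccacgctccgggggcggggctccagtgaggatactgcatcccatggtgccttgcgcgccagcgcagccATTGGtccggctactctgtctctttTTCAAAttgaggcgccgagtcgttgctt
KIF4A (chrX:70289954-70290103, + strand): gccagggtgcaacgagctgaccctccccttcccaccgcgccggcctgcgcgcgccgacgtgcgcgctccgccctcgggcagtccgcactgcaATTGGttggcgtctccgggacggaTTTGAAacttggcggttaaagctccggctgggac
KIF20A (chr5:138178962-138179111, + strand): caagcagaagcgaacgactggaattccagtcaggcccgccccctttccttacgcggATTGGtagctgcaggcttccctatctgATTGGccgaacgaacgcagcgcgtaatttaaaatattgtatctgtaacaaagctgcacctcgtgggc
KIF18B (chr17:44947774-44947923, - strand): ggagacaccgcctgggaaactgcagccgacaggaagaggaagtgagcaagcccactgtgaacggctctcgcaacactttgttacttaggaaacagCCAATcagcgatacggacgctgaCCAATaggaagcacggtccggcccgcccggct
KIF18A (chr11:28108157-28108306, - strand): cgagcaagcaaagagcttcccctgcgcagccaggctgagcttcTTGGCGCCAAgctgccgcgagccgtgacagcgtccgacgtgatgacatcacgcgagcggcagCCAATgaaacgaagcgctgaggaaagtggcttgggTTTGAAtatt
KIF2C (chr1:44739687-44739836, + strand): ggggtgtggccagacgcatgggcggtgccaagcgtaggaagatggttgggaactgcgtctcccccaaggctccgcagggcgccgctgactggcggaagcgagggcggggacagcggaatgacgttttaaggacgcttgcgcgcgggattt
KIF13A (chr6:17987636-17987785, - strand): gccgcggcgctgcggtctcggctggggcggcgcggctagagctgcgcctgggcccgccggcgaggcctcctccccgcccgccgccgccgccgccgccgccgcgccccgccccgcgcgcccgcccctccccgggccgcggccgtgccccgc
KIF11 and KIF4A each have a CCAAT box read from the opposite strand with CHR letters downstream of it, and KIF18A, the mitotic kinesin that did not pass the test, holds CCAAT, CHR and E2F letters together. KIF20A and KIF18B hold a pair of CCAAT boxes each, and KIF2C and KIF13A hold none of these letters in the stretch shown. Past the start, outside that stretch, KIF18B also holds CHR letters (bases 3 to 8) and E2F letters (bases 29 to 35). The combination seen in KIF18A is thus also found in KIF18B, which was lower in 786-O-VHL.

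Counted over the whole 300-base window (250 before to 50 after the start, both strands), CCAAT was in 8 of 9 mitotic promoters (88.9%) and in 3 of 9 transport promoters, against 34.6% of all 35116 RefSeq promoters and 36.4% of those of genes tested. CHR letters were in 6 of 9 mitotic promoters (66.7%) and in 1 of 9 transport promoters, against 15.2% of all and 9.41% of those of genes tested. The E2F letters were in 2 of 9 mitotic and 3 of 9 transport promoters, against 9.23% of all and 14.9% of those of genes tested. The core of the HIF response element, searched as ACGTG or GCGTG, was in 8 of 9 mitotic and 6 of 9 transport promoters, against 48.4% of all promoters and 63.1% of those of genes tested. Within the 100 bases before the start, HIF element letters were in 3 of 9 mitotic promoters (33.3%), next to 33.2% of those of genes tested. CHR letters were in 3 of 9 there, against 2.25%, CCAAT in 8 of 9, against 21.7%, and E2F letters in 0, against 5.64%. The letters TTGG that begin the second E2F word also end the reverse of CCAAT, so these words can overlap, and an ACGTG on both strands can be a single palindrome. A match is a run of letters and not a bound site.

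**Figure D3:**
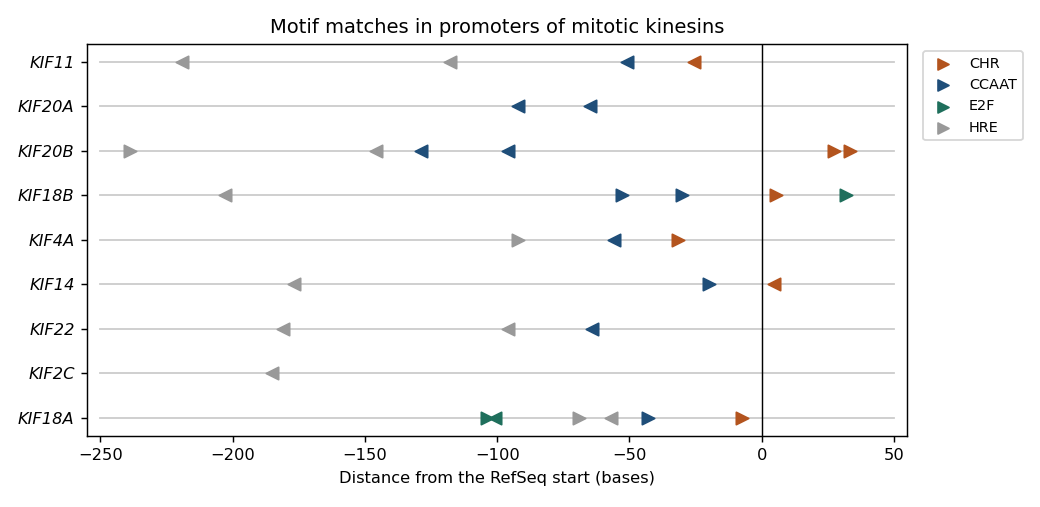
Positions of motif matches from 250 bases before to 50 bases after the RefSeq start (horizontal axis, in bases) for the 9 mitotic kinesins, ordered by fold change. Arrowheads point right for the gene's strand and left for the opposite strand; CCAAT matches lie before the start in 8 of the 9.

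Of the transport kinesins 7 of 12 did not pass the test. KIF5B, the ubiquitous kinesin-1 heavy chain, had the highest level per exon length of all members in each group, at 51.7 CPM per kb in 786-O-Ctrl and 47.8 CPM per kb in 786-O-VHL. It was at 308 and 299 CPM in 786-O-Ctrl and at 281 and 280 CPM in 786-O-VHL, and its log2 fold change of -0.11 had a 95% interval of -0.24 to 0.02 (edgeR FDR = 0.108). KIF1B, a carrier of vesicles and mitochondria, had group means of 79.0 and 77.8 CPM (log2 fold change -0.04, 95% interval -0.19 to 0.11, edgeR FDR = 0.623). KIF13A, an endosomal motor, had 104 and 108 CPM (log2 fold change 0.04, 95% interval -0.10 to 0.18, edgeR FDR = 0.598). A change of 2-fold lay outside these intervals. KIFC2, a minus-end kinesin-14, had 86.6 and 83.1 CPM (log2 fold change -0.07, 95% interval -0.21 to 0.07, edgeR FDR = 0.384). KIF16B of early endosomes had 22.8 and 20.9 CPM (log2 fold change -0.12, edgeR FDR = 0.409). KIF17, a kinesin-2 motor of neurons and cilia, had only 8 to 22 counts per library (log2 fold change 0.54, 95% interval -0.48 to 1.56, edgeR FDR = 0.354), an interval that holds a 2-fold rise, and its value ran from 0.15 without 786-O-VHL replicate 1 to 1.56 without replicate 2. KIF1A, KIF5A and KIF5C, known mainly from neurons, were not analysed here.

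Within the kinesin-2 group, which drives intraflagellar and vesicle transport and in which KIF3A pairs with KIF3B or KIF3C, the members differed. KIF3C (chromosome 2, 26149467 to 26205618) was at 69.0 and 72.0 CPM in 786-O-Ctrl and at 38.7 and 43.1 CPM in 786-O-VHL, the largest fall among the transport kinesins (log2 fold change -0.74, standard error 0.0809, edgeR FDR = 5.07e-09). KIF3B was at 93.9 and 94.4 CPM and at 86.2 and 83.9 CPM (log2 fold change -0.16, edgeR FDR = 0.0494). The KIF3B call was held in only 4 of 11 alternatives, whose edgeR, DESeq2 or limma FDR ran from 0.0217 to 0.788. KIF3A was at 17.7 and 20.3 CPM in 786-O-Ctrl and at 30.5 and 20.4 CPM in 786-O-VHL, with only replicate 1 clearly above the control libraries (log2 fold change 0.27, edgeR FDR = 0.0932). KIF3A passed the test when 786-O-VHL replicate 2 was left out (log2 fold change 0.69, edgeR FDR = 0.00339), and its FDR ran from 0.00339 to 0.431 over the alternatives. KIF3C counts were 0.735 and 0.763 times those of KIF3B in 786-O-Ctrl and 0.449 and 0.513 times in 786-O-VHL, so that this ratio did not overlap between groups.

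The kinesin-3 group of long-range carriers held a member that rose and a member that fell. KIF13B (GAKIN; chromosome 8, 28924795 to 29120641) was at 23.8 and 24.2 CPM in 786-O-Ctrl and at 46.5 and 39.0 CPM in 786-O-VHL (log2 fold change 0.77, standard error 0.105, edgeR FDR = 2.9e-07). Its counts were 0.223 and 0.238 times those of its paralog KIF13A in 786-O-Ctrl and 0.429 and 0.365 times in 786-O-VHL. KIF1C, a carrier of vesicles and mRNA, fell slightly, from 349 and 340 CPM to 266 and 280 CPM (log2 fold change -0.33, edgeR FDR = 4.24e-05). KIFC3, a minus-end kinesin-14 of adherens junctions and the Golgi, rose from 170 and 156 CPM to 192 and 228 CPM (log2 fold change 0.39, edgeR FDR = 2.26e-05). The groups of KIF13B, KIF1C and KIFC3 did not overlap.

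Of the partners of transport kinesins, 8 of 16 were higher and 2 were lower at an edgeR FDR under 0.05 (4 higher with DESeq2), with a median log2 fold change of 0.18. Among all genes 32.6% were higher and 31.9% lower. JMY rose most (2.38, edgeR FDR = 1.04e-14), but it is known as an actin nucleator and p53 cofactor rather than as a motor adaptor, and without it, a choice made after its value was seen, 7 of 15 were higher and 2 were lower. RHOT1 (Miro1), the mitochondrial GTPase that anchors kinesin-1 through TRAK adaptors, had a log2 fold change of 0.83 (edgeR FDR = 1.02e-09), and its paralog RHOT2 one of -0.45 (edgeR FDR = 1.54e-06). The kinesin light chain KLC3 had 0.81 (edgeR FDR = 0.000808). KIFBP, which binds and restrains several kinesin motor domains, had -0.42 (edgeR FDR = 1.29e-05).

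For the opposite motor, cytoplasmic dynein with its cofactor dynactin, 12 of 26 tested genes were lower and 9 were higher (median log2 fold change -0.11, or 0.02 with scaling by library totals alone), against 31.9% lower and 32.6% higher among all genes. Only 3 were higher with DESeq2 or without the shallower 786-O-Ctrl library, and 4 without the deeper library or without 786-O-VHL replicate 2. DYNC1I1, an intermediate chain used mainly in neurons, fell from 58 and 50 counts to 0 and 5 counts (log2 fold change -3.54, edgeR FDR = 2.18e-06). DCTN1, the large dynactin subunit, and BICD2, a cargo adaptor, fell by 0.87 and 0.85 on the log2 scale (edgeR FDR = 4.2e-12 and 2.5e-11), while ACTR10, of the dynactin pointed end, rose by 0.56 (edgeR FDR = 3.51e-07). The light chains DYNLL1 and DYNLL2 rose by 0.38 and 0.32 (edgeR FDR = 1.72e-05 and 0.000152). Other light chains did not rise: DYNLT3 fell by 0.34 (edgeR FDR = 0.00137), and DYNLT1 and DYNLRB1 did not pass (edgeR FDR = 0.23 and 0.641).

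Of the cilium kinesins 2 of 5 were lower and 2 were higher by edgeR (1 lower and 0 higher by DESeq2), where all genes had 31.9% lower and 32.6% higher. KIF24, which restrains cilium assembly at the centriole, was at 14.7 and 15.6 CPM in 786-O-Ctrl and at 8.82 and 10.2 CPM in 786-O-VHL (log2 fold change -0.61, standard error 0.156, edgeR FDR = 0.00126). KIF7, a Hedgehog regulator of the ciliary tip, was at 14.3 and 14 CPM and at 10.2 and 10.6 CPM (log2 fold change -0.42, edgeR FDR = 0.0183), and this call was held in 5 of 11 alternatives (FDR from 0.014 to 0.143). Its paralog KIF27 went the other way, from 4.46 and 4.52 CPM to 7.80 and 7.84 CPM (log2 fold change 0.80, standard error 0.216, edgeR FDR = 0.00199). KIF27 rested on 23 counts in 786-O-VHL replicate 1, and its call was held in 8 of 11 alternatives (FDR from 0.00042 to 0.189). KIF6, a kinesin-9 of motile cilia, had only 6 and 5 counts without VHL and 4 and 18 counts with it, which is 0.285 and 0.332 CPM against 1.36 and 1.07 CPM (log2 fold change 1.85, standard error 0.591, edgeR FDR = 0.00772). The KIF6 call was held in 6 of 9 alternatives (FDR from 0.00352 to 0.136). KIF9, the other kinesin-9, had group means of 5.77 and 7.09 CPM (log2 fold change 0.24, edgeR FDR = 0.32). The class had 1 member lower without either 786-O-Ctrl library or without 786-O-VHL replicate 2, and 1 member higher without the deeper 786-O-Ctrl library and 0 without 786-O-VHL replicate 2.

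Of the other kinesins 3 of 5 rose and 0 fell by edgeR, also at an unadjusted p under 0.05, against 32.6% higher and 31.9% lower among all genes. KIF12, a kinesin found in kidney and liver epithelium (chromosome 9, 116848406 to 116861572), rose from 27.5 and 30.1 CPM in 786-O-Ctrl to 69.2 and 60.3 CPM in 786-O-VHL (log2 fold change 1.13, standard error 0.092, edgeR FDR = 1.52e-11). The groups did not overlap, and per exon length its level was 9.38 and 21.1 CPM per kb in the group means. KIF26B, an atypical kinesin-11 of cell adhesion and signaling (chromosome 1, 245318287 to 245872734), rose from 4.27 and 3.52 CPM to 11.2 and 14 CPM (log2 fold change 1.75, standard error 0.198, edgeR FDR = 1.09e-08). KIF26A, its paralog, had 5 to 18 counts per library and a log2 fold change of 0.09 (edgeR FDR = 0.891). KIF21A, which restrains microtubule growth, was at 40.8 and 43.9 CPM and at 56.3 and 54.0 CPM (log2 fold change 0.37, edgeR FDR = 0.000377). KIF2A, a relative of KIF2C that works at spindle poles and also in interphase, was at 31.6 and 30.9 CPM and at 36.0 and 29.7 CPM, so that its groups overlapped (log2 fold change -0.00, 95% interval -0.22 to 0.22, edgeR FDR = 0.974).

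**Figure D4:**
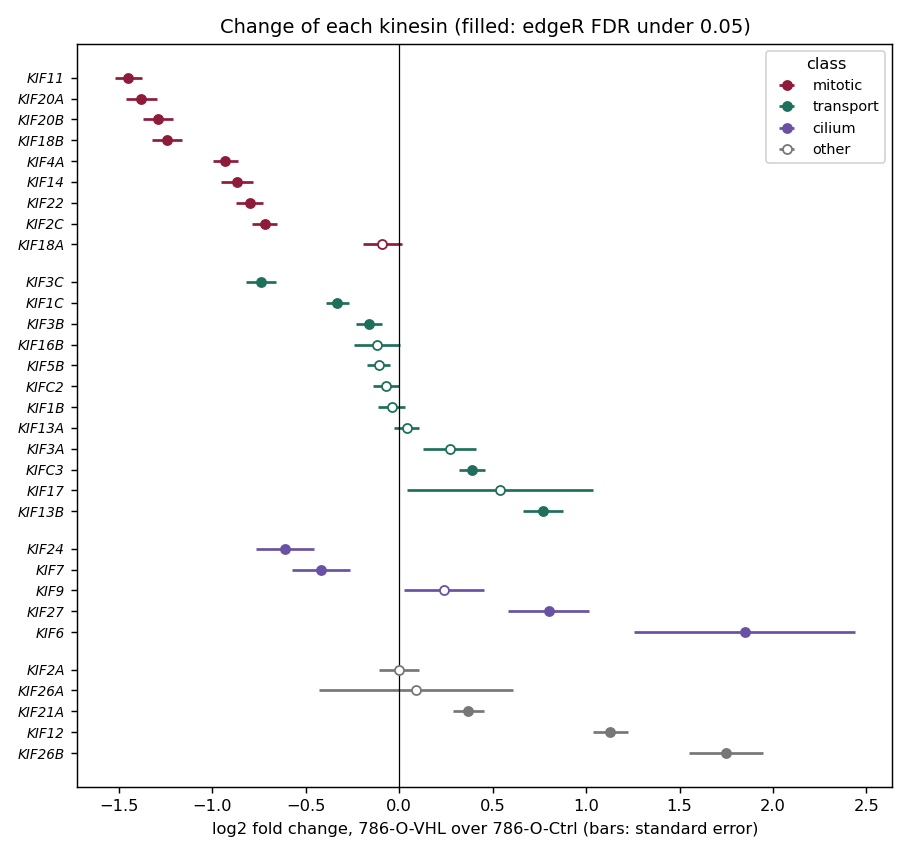
Log2 fold change of 786-O-VHL over 786-O-Ctrl (horizontal axis) for all 31 kinesins by class, with standard errors as bars and filled points for an edgeR FDR under 0.05. The mitotic kinesins lie between -1.45 and -0.09, the transport kinesins between -0.74 and 0.77.

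Among the members per exon length, KIF1C, KIF4A, KIF2C and KIF20A came after KIF5B in 786-O-Ctrl, at 40.2, 39.6, 39.5 and 36.8 CPM per kb. The ranges of KIF1C, KIF4A and KIF2C over the 786-O-Ctrl libraries overlapped, so that their order was not resolved. In 786-O-VHL the order after KIF5B was KIF1C, KIF2C, KIFC3, KIF12 and KIF4A, at 31.8, 23.5, 21.8, 21.1 and 21.0 CPM per kb, and KIF20A was at 13.2 CPM per kb. From KIF2C to KIF4A, each range over the 786-O-VHL libraries overlapped that of the next member. KIF6 was last in each group, at 0.026 and 0.102 CPM per kb.

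Annotated genes on the opposite strand share 18.7% of the exon bases of KIF2A, 17.8% of those of KIF9 and of KIFC2, 10.8% of those of KIF7 and 10.7% of those of KIF27, and no source used here says whether counting used strand. With scaling by library totals alone the median log2 fold change of all genes was 0.15 and 62.1% of the genes called were higher, against 50.5% with TMM. The mitotic median was then -0.80.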

How the data were processed

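Raw counts per gene from RNA-seq were analysed for 4 libraries, 2 per group. Per the labels the authors used CASAVA, STAR and hg19, and they deposited unnormalized counts for 12912 genes. How reads were assigned to genes, and whether by strand, was not found in the sources. The 786-O-VHL columns were matched to samples by name, and the 786-O-Ctrl columns to their group only.

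Counts were tested with edgeR 4.0.16 (R 4.3.3): filterByExpr at a minimum count of 10 left 12335 genes (577 fell out), libraries were TMM-scaled, and the quasi-likelihood F test had the group as its single term with Benjamini-Hochberg adjustment. Standard errors are those the F statistic implies, and 95% intervals use 2 residual plus 25.5 prior degrees of freedom. Replicates differed by more than sampling noise (chi-square per degree of freedom of 2.25 and 2.76). Exon lengths (the union of exons) and positions came from a GRCh37 lift of GENCODE, matched for 12749 genes, and promoters from RefSeq (GRCh38.p14).

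Kinesin classes and gene lists were written by hand, and members, classes and lists were chosen with earlier results of these data known. Every member is named, those past an FDR of 0.05 and a 1.5-fold change with the value in each library. Of other lists at most 3 genes per direction are named. Exceptions are CENPE, DYNLT1, DYNLT3, DYNLRB1 and the line markers, which were picked after their values were seen.

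The fits were tested on simulated data. DESeq2 1.42.0, limma-voom (limma 3.58.1), RLE, library totals, other filters, thinning and leaving out each library were alternatives.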

Additional observations from a re-analysis of the deposited data

How the results depend on the processing

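The calls of 18 of the 31 kinesins, and their directions, were the same under every alternative fit run for them, among them 8 mitotic members (all but KIF18A). The mitotic class had 8 members lower under every alternative run other than the 4-fold threshold and the fit without 786-O-VHL replicate 2, which gave 9. At 4-fold and an FDR under 0.01 the count was 0 for every kinesin class in either direction, for the partners of mitotic kinesins, for the lower partners of transport kinesins, for the higher dynein genes and for the G2/M markers, and 1 for the higher partners of transport kinesins and the lower dynein genes. With library totals alone the median log2 fold change became 0.05 for all kinesins, -0.80 for mitotic kinesins, 0.08 for transport kinesins and 0.02 for dynein and dynactin, with 4 transport kinesins higher, and single values became 0.05 (KIF18A), 0.13 (KIF2A), 0.09 (KIF1B), 0.02 (KIF5B and KIF16B) and 0.06 (KIFC2). Cilium kinesins numbered 1 lower with DESeq2, library totals, thinning or an FDR under 0.01, and 0 higher with DESeq2 or thinning and 1 with at least 10 counts in every library, where their median was -0.09 (-0.02 when thinned). Higher partners of transport kinesins numbered 4 with DESeq2 and with thinning, and higher dynein genes 3 and 4. KIF18A was 0.04 when thinned, and KIF2A was 0.01 with DESeq2, 0.00 with at least 10 counts in every library and 0.02 when thinned. The cause of these shifts was not tested. Leaving out each library in turn gave mitotic medians of -0.96 to -0.87, transport medians of -0.08 to -0.01, 1 to 2 cilium kinesins lower and 0 to 2 higher, 3 to 9 dynein genes higher, and log2 fold changes of -0.50 to 0.02 (KIF18A), -0.08 to 0.19 (KIF2A), -0.07 to 0.01 (KIF1B), 0.15 to 1.56 (KIF17) and -0.25 to 0.87 (KIF26A). In each of these fits the lone library of a group was assumed to vary like the other group.

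In the 100 bases before the start, CHR letters were in 3 mitotic and 0 transport promoters, E2F letters in 0 and 0, and HIF response element letters in 3 and 1. No paired analysis was possible because both 786-O-Ctrl columns carry the same replicate number. The 3-count floor was 1.02 CPM in 786-O-VHL replicate 1 and 0.142 to 0.199 CPM in the others, which limits KIF6, KIF17, KIF26A and KIF27.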
